A study of Mus musculus with 12 samples.

Results

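Granulocyte-macrophage progenitors (GMP), from which neutrophils, monocytes and, in part, eosinophils develop in the bone marrow, were compared between Xbp1-deficient (KO) and wild-type (WT) C57BL/6 mice. The 6 libraries of freshly sorted GMP, 3 WT and 3 KO, were taken by their labels from the 12 of the series. The other 6 are GMP of both genotypes that were transduced with GATA2, sorted again and cultured for 48 hours. RNA was polyadenylated, from GMP that went into Trizol without culture, and all 6 libraries were made with the same TruSeq kit. The labels give the KO only as Xbp1-deficient: the allele, any Cre driver, the age of the mice, the sorting gate and the animals behind each replicate number are not given in the sources used here, so the p-values measure the spread between these libraries, which may be technical. Of 23362 genes counted, 12002 had enough reads to be tested in GMP.

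The transcription factor XBP1 belongs to the unfolded protein response. The endoplasmic reticulum (ER) sensor IRE1 removes a short intron from Xbp1 mRNA, and the protein made from the spliced form switches on genes for the entry of proteins into the ER, their folding and glycosylation, their disposal and their transport to the Golgi. The response has other branches, through the sensors PERK and ATF6, and IRE1 can also cut a set of other mRNAs at the ER membrane. GMP carry a heavy load of secretory cargo, since they make the proteases and peroxidase of the primary granules.

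Library totals ran from 8220484 counts (KO 3) to 33645602 counts (KO 2), so that 1 CPM (counts scaled to library size) stood for at least 8.22 reads. The ribosomal precursor transcript Rn45s had 29162 CPM in WT 3 and 7759 to 13252 CPM in the other 5 libraries. Summed immediate early genes were lowest in replicate 2 of both genotypes, at 2439 CPM in WT 2 and 3115 CPM in KO 2, against 4229 to 6745 CPM in the other 4. Summed eosinophil genes were higher in all 3 KO libraries than in any WT library, with the values given in the account of cell types. The GMP markers Mpo, Elane, Prtn3, Ctsg, Kit, Cd34, Fcgr3 and Csf3r were all detected in every library, with Mpo at 23559.5, 21874 and 25588 CPM in WT 1 to 3 and 24079, 20493 and 21618 CPM in KO 1 to 3.

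Xbp1 itself (chr11:5420662-5425896, mm9) was read at 170.1, 173 and 202 CPM in WT and 115, 70.6 and 76.003 CPM in KO. The groups did not overlap, and KO 1 had the highest level of the 3 KO libraries. The log2 fold change, here and below KO minus WT, was -1.06 (SE 0.21, adjusted p = 0.0919) by edgeR's quasi-likelihood test with Benjamini-Hochberg adjustment, which misses the threshold of 0.05. Without KO 1 the log2 fold change was -1.32 (adjusted p = 5.20e-07), past the threshold. Counts over the whole gene include exons outside a deleted part, so the reads left in KO give no measure of functional transcript. Among 70 tested genes within 5 Mb of Xbp1, 1 was called, Smtn, a smooth muscle-associated actin-binding protein, with a log2 fold change of 0.35.

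Most of the genes that differed were lower in KO. At an adjusted p under 0.05, 381 genes were called, 3.17% of those tested: 302 were lower in KO (2.52%) and 79 higher (0.658%). More than 2-fold differences were found for 37 of the lower and 8 of the higher genes, and the median log2 fold change was -0.48 among the lower, 0.45 among the higher and 0.01 over all genes tested. In each of the 381 genes the 3 WT and 3 KO libraries did not overlap, which was the case for 20.2% of all genes tested. With the replicate number as a block, 964 genes were called (8.03%), 396 higher and 568 lower, among them 380 of the 381, so that the lower genes were 79.3% of the calls without the block and 58.9% with it.

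Of the 381 genes, 176 also passed in each of the 6 fits that left out 1 library, 161 of the lower and 15 of the higher, and a call is described below as held where this was so. Without WT 3, the library high in Rn45s, 237 genes were called, and without KO 3, the shallowest, 209 were called. The higher calls numbered 25 without WT 3, 30 without KO 3, 37 without WT 1 and 41 without WT 2.

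**Figure D1:**
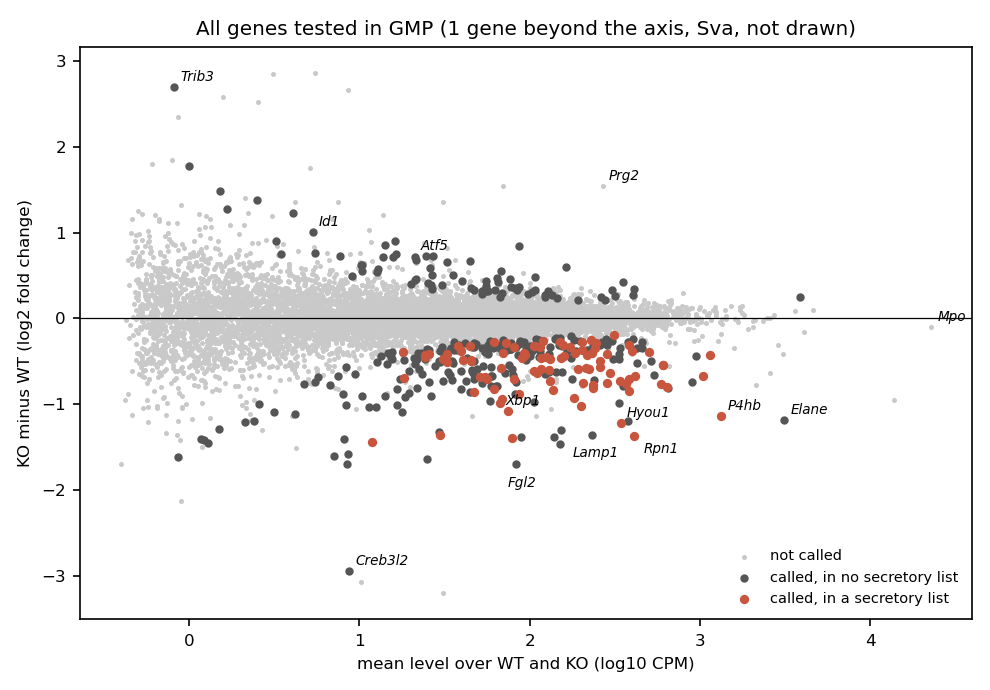
Each point is 1 of the genes tested in GMP, by its mean level over both genotypes (log10 CPM) and its KO minus WT log2 fold change. Of the called genes 302 are below 0 and 79 above, the latter including Sva, which lies beyond the axis and is not drawn. All called members of the secretory lists lie below 0.

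The genes of the secretory pathway made up the largest block of the falls among the lists examined. Over 13 lists, from entry into the ER to the Golgi, 224 genes were tested, 92 were lower (41.1%) and 0 were higher by edgeR, against 2.52% and 0.658% of all genes. At an unadjusted p under 0.05, 141 were lower and 4 higher, and DESeq2 called 100 lower and 0 higher. Their median log2 fold change was -0.23, 192 of the 224 lay below 0, and they supplied 30.5% of all falls. With the replicate block 120 were lower and 0 higher, and the fits that left out 1 library called from 70 (without KO 3) to 95 (without KO 1). Of the 92 calls, 66 held.

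Proteins destined for secretion are recognised by the signal recognition particle, passed through the Sec61 channel, cut by signal peptidase and given sugars by the oligosaccharyltransferase, and transcripts for each of these steps were lower. The channel and its partners were lower in 8 of 12 tested genes, with a median of -0.51, and all 8 calls held. Sec61b, a subunit of the channel, was read at 85.8, 83.1 and 101 CPM in WT and 47.2, 48.4 and 44.8 CPM in KO (-0.94, SE 0.08, adjusted p = 3.50e-05). The lowest WT library lay well above the highest KO library. Sec61a1, the pore subunit, changed by -0.76, and the 4 subunits of the translocon-associated TRAP complex, Ssr1, Ssr2, Ssr3 and Ssr4, changed by -0.55, -0.49, -0.76 and -0.40. Sec62, which serves the entry of proteins after their synthesis, had 145 ± 6.28 CPM in WT against 141 ± 9.099 CPM in KO (mean ± SD, n = 3) and was not called (-0.04), while its partner Sec63 was lower (-0.47), as was Tram1, a channel-associated membrane protein (-0.56).

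Among the subunits of signal peptidase 3 of 5 were lower, and these calls held. Spcs2 and Spcs3, accessory subunits, changed by -0.81 and -0.84, and the catalytic subunit Sec11c by -0.43. The other catalytic subunit, Sec11a, was at 116, 117 and 110.3 CPM in WT and 99.8, 99.3 and 90.99 CPM in KO, and missed the threshold (-0.24, adjusted p = 0.0509; 0.00442 with the block). The signal recognition particle and its receptor were lower in 4 of 8 genes, by 0.42 on the log2 scale or less. Of these only the call of Srp72, a protein of the particle, held (-0.42). Those of Srp9 (lost without WT 1, WT 3, KO 1 or KO 3), Srpr (WT 3, KO 2 or KO 3) and Srprb (WT 2, WT 3, KO 2 or KO 3) reached adjusted p values of 0.152, 0.152 and 0.0995.

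The oligosaccharyltransferase transfers a preassembled glycan to the growing chain, and 9 of its 12 subunits or partners were lower, with a median of -0.47. Rpn1 (chr6:88034467-88055298, mm9), which brings substrates to the catalytic site, had 535, 561 and 669 CPM in WT against 221, 238 and 222 CPM in KO. All 3 KO libraries lay far below the lowest WT library, and the log2 fold change was -1.37 (SE 0.08, adjusted p = 1.31e-05). Of the 2 alternative catalytic subunits, Stt3a had 461, 454 and 503 CPM in WT against 281, 296 and 290.1 CPM in KO and was lower (-0.71). Stt3b had 438, 416 and 418 CPM in WT against 446, 378 and 377 CPM in KO, with overlapping groups, and was not called (-0.08, SE 0.07). The difference between the 2 genes was not tested. Ostc and Krtcap2, which belong with STT3A, were lower (-0.83 and -0.40), and so was Magt1, which belongs with STT3B (-0.78). The call of Dad1 (-0.33) was lost without WT 1, WT 2, WT 3 or KO 3 (adjusted p up to 0.124), and the other 8 held.

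The enzymes that build and trim the glycan were lower in 8 of 34 genes, with a median of -0.12. The largest falls among them were Gfpt1, the entry enzyme of the hexosamine pathway that makes UDP-GlcNAc, at -0.69, and Alg2, a mannosyltransferase of the lipid-linked precursor, at -0.68. Of the later steps to UDP-GlcNAc, Gnpnat1 (-0.40), Pgm3 (-0.48) and Uap1 (-0.46) were lower too, so that all 4 named members of that route were called. Gmppa, of the synthesis of GDP-mannose, was also lower (-0.48). Gnpnat1 held in 1 of the 6 fits, and its adjusted p rose to 0.16 over the fits without WT 1, WT 2, WT 3, KO 1 or KO 3.

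**Figure D2:**
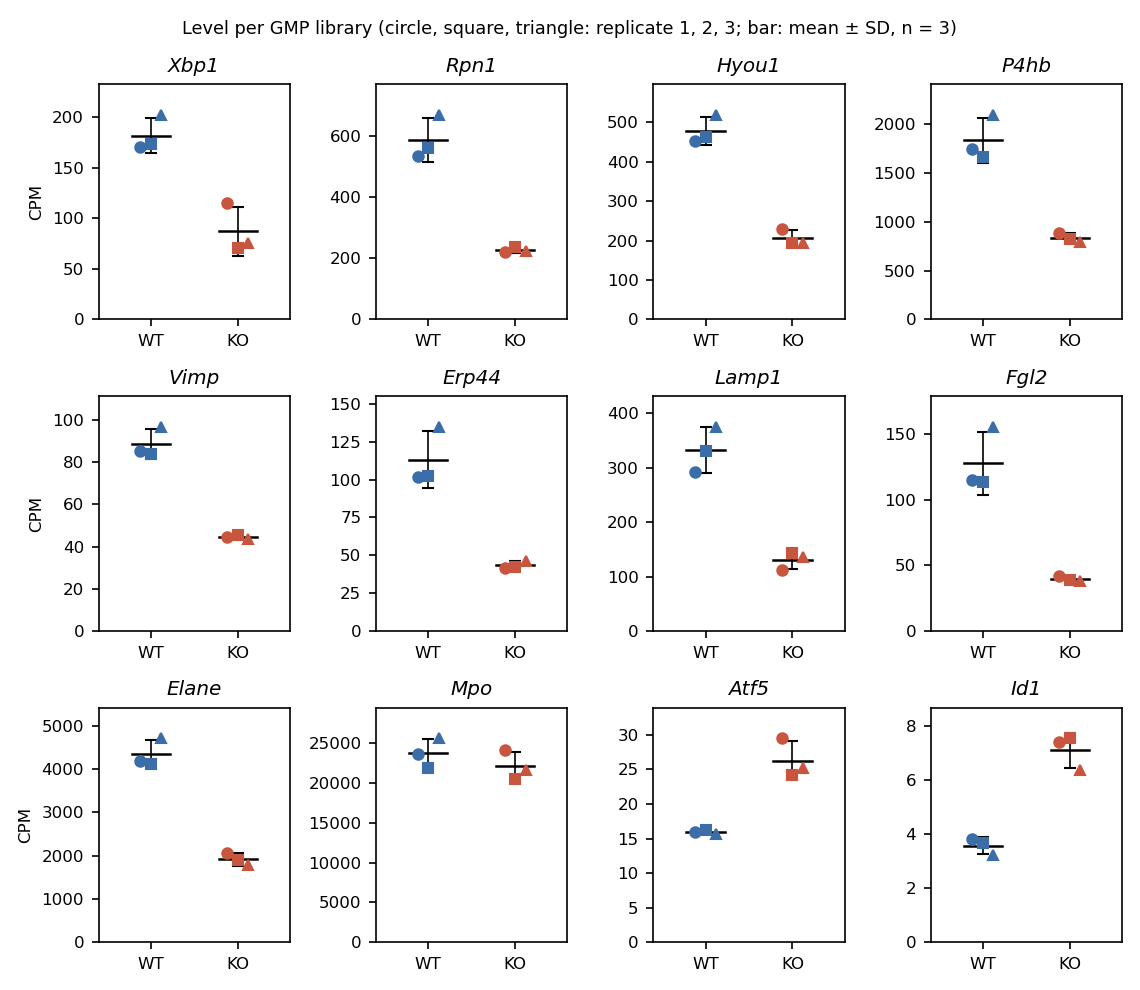
Level of 12 genes (CPM, axis from 0) in each WT and KO library of GMP, with the mean ± SD of each group of 3. The groups do not overlap in any gene shown except Mpo. Atf5 and Id1 are higher in KO and the others that do not overlap are lower.

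Transcripts of the chaperones and folding enzymes inside the ER fell together with those of the entry machinery. Of the Hsp70, Hsp90 and lectin chaperones 8 of 15 were lower (median -0.58), of the disulfide isomerases and oxidases 9 of 18 (median -0.55), of the J proteins 3 of 8 (median -0.47) and of the prolyl isomerases 3 of 6 (median -0.23). Hyou1 (chr9:44187573-44200452, mm9), a large chaperone that helps BiP exchange its nucleotide, had 453, 462 and 518 CPM in WT against 229.5, 194 and 193 CPM in KO (-1.21, SE 0.08, adjusted p = 1.31e-05). Its groups were far apart, with KO 1 the highest of KO and WT 1 the lowest of WT. Cnpy2 and Cnpy3, of the canopy family of ER proteins, changed by -0.58 and -0.63 with held calls.

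Hspa5, which encodes BiP, the main Hsp70 of the ER, differed from Hyou1 in its spread. It was read at 3426, 2364 and 3596 CPM in WT and 2219, 1670.1 and 2163 CPM in KO. KO 1 and KO 3 lay just below WT 2, and replicate 2 was the lowest of each genotype. The log2 fold change was -0.63 (SE 0.21, adjusted p = 0.283) without the replicate block and -0.62 (adjusted p = 5.39e-07) with it, and Hspa5 also passed without WT 2 (adjusted p = 0.00865). Hsp90b1, the ER Hsp90, and Sdf2l1, a partner of BiP, were likewise called with the block and not without it, at -0.35 and -0.74 without it (adjusted p = 0.295 and 0.0634; 0.0096 and 0.000366 with it). Both also passed without KO 1, and Sdf2l1 by DESeq2 (adjusted p = 0.00411). Calr, the soluble lectin chaperone, was not called in either fit (-0.15), whereas Canx, its membrane-bound counterpart, was lower at 1326, 1345 and 1252 CPM in WT and 1046, 979 and 892 CPM in KO (-0.43).

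The J proteins bring substrates to BiP. Dnajc3 had 258, 254 and 293 CPM in WT against 145, 132 and 119.9 CPM in KO (-1.02, SE 0.08, adjusted p = 2.22e-05). Dnajc10, which also reduces disulfides, had 217, 244 and 253 CPM in WT against 109, 143 and 123 CPM in KO (-0.93), and Dnajb11 changed by -0.73. All 3 calls held. Dnajb9, whose fall was among the largest of the list, varied more, with 67.3, 41.4 and 78.9 CPM in WT and 27.6, 25.5 and 33.6 CPM in KO (-1.14, SE 0.28, adjusted p = 0.159; 0.00123 with the block).

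Among the disulfide isomerases P4hb, the archetype of the family, was read at 1747, 1659 and 2091 CPM in WT and 887, 820.5 and 788 CPM in KO (-1.14, SE 0.08, adjusted p = 5.54e-05). Erp44, which retains oxidases and unassembled clients in the early secretory pathway, had 102, 103 and 135 CPM in WT against 41.3, 42.5 and 46.5 CPM in KO (-1.39), the largest fall of the list. Pdia5 (-1.36), Txndc11 (-1.07), Pdia6 (-0.80), Pdia4 (-0.75), Pdia3 (-0.66) and Tmx3 (-0.59) were lower as well. Of these the calls of Pdia5 and Pdia4 were lost once each, without KO 1 (adjusted p = 0.056) and without WT 3 (0.0516).

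The ER oxidases that supply disulfides differed in their calls. Ero1lb was lower, at 35.7, 37.999 and 41.3 CPM in WT and 26.1, 28.2 and 26.5 CPM in KO (-0.50, adjusted p = 0.00261). Ero1l, the form also known as a hypoxia-responsive gene, had 139, 138 and 129 CPM in WT against 152, 134 and 132 CPM in KO, with overlapping groups (0.04, SE 0.07). Whether the 2 genes differ in response was not tested. Fkbp11, a membrane-anchored prolyl isomerase, had 13.99, 14.6 and 23.04 CPM in WT against 6.12, 5.98 and 7.31 CPM in KO (-1.44, adjusted p = 0.00294), and this call held. The falls of Ppib (-0.26) and Fkbp2 (-0.33) were small, and were lost without WT 1, WT 3 or KO 3 and, for Fkbp2, also without WT 2 or KO 2 (adjusted p up to 0.137 and 0.149).

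Several of these genes carry an ER stress response element close to their start site. The element ERSE has CCAAT and CCACG spaced by 9 bases, and ERSE-II has ATTGG and CCACG spaced by 1 base; XBP1 and ATF6 are known to bind such elements together with NF-Y. The 300-base windows below, from RefSeq's GRCm38.p6 annotation and placed on mm9 by their exact sequence, run from 250 bases before the start of the gene to 50 bases after it. They are shown because they belong to 4 folding genes whose falls held, and because the arrangement of the element can be compared in them. The capitals mark the ends of the element, CCAAT and CCACG, or ATTGG and CCACG in Dnajb11.
Dnajc3, chr14:119336904-119337203, + strand, ERSE from 105 to 87 bases upstream of the start: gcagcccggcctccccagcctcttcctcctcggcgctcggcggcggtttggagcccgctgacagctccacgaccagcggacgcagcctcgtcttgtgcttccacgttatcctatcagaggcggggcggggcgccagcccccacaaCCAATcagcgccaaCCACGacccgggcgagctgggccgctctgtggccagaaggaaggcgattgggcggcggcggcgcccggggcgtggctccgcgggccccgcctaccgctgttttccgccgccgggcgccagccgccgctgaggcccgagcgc
Pdia6, chr12:17273145-17273444, + strand, ERSE from 98 to 80 bases upstream: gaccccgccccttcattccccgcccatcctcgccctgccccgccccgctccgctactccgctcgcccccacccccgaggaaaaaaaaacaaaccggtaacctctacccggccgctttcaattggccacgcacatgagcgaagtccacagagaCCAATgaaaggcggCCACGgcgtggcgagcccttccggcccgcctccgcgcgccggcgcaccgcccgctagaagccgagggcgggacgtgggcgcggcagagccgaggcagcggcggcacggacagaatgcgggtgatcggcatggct
Canx, chr11:50139126-50139425, - strand, ERSE from 145 to 127 bases upstream: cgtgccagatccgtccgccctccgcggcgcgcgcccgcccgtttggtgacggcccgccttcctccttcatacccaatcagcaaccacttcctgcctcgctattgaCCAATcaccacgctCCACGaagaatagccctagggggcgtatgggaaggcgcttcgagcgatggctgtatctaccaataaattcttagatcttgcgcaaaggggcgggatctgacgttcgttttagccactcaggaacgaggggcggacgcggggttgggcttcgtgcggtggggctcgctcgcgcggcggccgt
Dnajb11, chr16:22857668-22857967, + strand, ERSE-II from base 8 to base 18 after the start: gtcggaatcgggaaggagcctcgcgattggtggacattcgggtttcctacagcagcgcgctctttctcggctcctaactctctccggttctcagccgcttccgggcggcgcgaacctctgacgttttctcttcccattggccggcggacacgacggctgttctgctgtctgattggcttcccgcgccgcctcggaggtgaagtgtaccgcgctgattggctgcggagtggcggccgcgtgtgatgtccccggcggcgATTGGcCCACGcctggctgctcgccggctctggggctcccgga
In the 3 ERSE windows the element reads in the direction of the gene and lies within 145 bases of its start, and in Dnajb11 the ERSE-II lies in the transcribed part.

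Windows were matched for 9606 of the 12002 genes tested, and both strands were searched. Either element was found in 23 genes, of which 8 were lower and 0 higher, 34.8% against 3.17% of all genes tested, with 21 of the 23 below 0 and a median log2 fold change of -0.40. With the replicate block 12 were lower and 1, Pan2, was higher. The 8 lower genes were Nucb1, Dnajc3, Creld2, Pdia6, Dnajb11, Ero1lb, Canx and Krtcap2. Hspa5, Syvn1, Hsp90b1 and Alg12 joined them with the block, and Herpud1, Derl3 and Calr were not called in either fit. By motif, ERSE was found in 5 of 246 lower genes with a window (2.03%), in 0 of 65 higher genes and in 0.156% of all genes. ERSE-II was found in 3 of the 246 lower genes (1.22%) and in 0.0833% of all. The element UPRE, TGACGTGG, was found in 5.69% of the lower genes, 1.54% of the higher genes and 1.07% of all. Lower genes in no secretory list held UPRE in 5.14% of their windows (9 of 175). Lower genes in such a list held it in 7.04% (5 of 71), and list members not called in 5.36% (6 of 112). For comparison, the cyclic AMP element TGACGTCA was in 2.44% of the lower genes and 3.55% of all. Lower genes in a secretory list held ERSE in 7.04% of their windows (5 of 71). Members of these lists that were not called held it in 5.36% (6 of 112), and lower genes in no secretory list in 0 of 175. ERSE was thus not limited to the genes called without the block. A missing call there does not show a missing response, since Hspa5, Syvn1, Hsp90b1 and Alg12, which hold ERSE, were lower with the block. With ERSE in only 0.156% of all genes, 0 of 175 says little. Whether the element goes with the lists or with the call cannot be told from these shares. A match of letters shows neither binding nor its absence.

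Of 29 tested genes of ER-associated degradation, which returns misfolded proteins to the cytosol for destruction, 5 were lower (17.2%, median -0.19) and 12 were lower with the replicate block; 17 were lower at an unadjusted p under 0.05. Vimp, a selenoprotein that ties the p97 ATPase to the ER membrane, had 85.1, 83.8 and 96.9 CPM in WT against 44.4, 45.7 and 43.6 CPM in KO (-0.99, SE 0.07, adjusted p = 1.31e-05). It was the largest fall of the list and held. Edem1, a lectin that hands over glycoproteins, had 236, 258 and 277 CPM in WT against 174, 168 and 178 CPM in KO (-0.57), and the ligase March6 changed by -0.46. Derl1 (-0.32) was lost without KO 3 (adjusted p = 0.0546) and Selk (-0.41) without WT 1 or KO 3 (up to 0.0559). Of the central Hrd1 complex, the ligase Syvn1 was not called without the block (-0.56, adjusted p = 0.212), but was with it (0.00774) and by DESeq2 (0.000445). Its partner Sel1l had 160.4 ± 4.49 CPM in WT against 166 ± 16.5 CPM in KO, and was not called (0.05).

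A group not on any list drew attention after the values had been seen, and is given as a description. UFM1 is a ubiquitin-like protein that is attached to ribosomes at the ER. Of 7 genes of its pathway that were examined, 5 were lower, against 2.52% of all genes. The count depends on that choice of genes. The 5 were the ligase Ufl1 (-0.79), the protease Ufsp2 (-0.69), the ligase partner Cdk5rap3 (-0.44), the conjugating enzyme Ufc1 (-0.37) and Ufm1 itself (-0.32). Ufl1 was read at 79.1, 74.9 and 89.3 CPM in WT and 44.03, 49.6 and 46.8 CPM in KO, with no overlap. The adaptor Ddrgk1 was at 67.8, 63.5 and 64.6 CPM in WT and 62.2, 61.4 and 68.7 CPM in KO, with no call (-0.03). Ufsp1, at low levels, was not called (-0.12). The first 3 calls held; that of Ufc1 was lost without KO 3 (adjusted p = 0.0617) and that of Ufm1 without WT 1, WT 3, KO 1 or KO 3 (up to 0.11).

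Transcripts for transport out of the ER were lower too. The COPII coat, which buds vesicles from the ER, and its cargo receptors were lower in 17 of 36 genes (median -0.26), and 13 of the calls held. With the block 25 were lower. Surf4, a cargo receptor, had 411, 399 and 466 CPM in WT against 278, 248 and 246 CPM in KO (-0.73, SE 0.07, adjusted p = 9.67e-05). Lman1, the lectin receptor for glycoproteins, changed by -0.59, the p24 protein Tmed9 by -0.64 and the SNARE Bet1 by -0.86. Of the inner coat, Sec23a and Sec23b were both lower (-0.48 and -0.45).

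Sec24d, a cargo-binding subunit of that coat, had the largest fall of the list and yet missed the threshold. It was read at 40.5, 39.2 and 86.9 CPM in WT and 6.94, 5.31 and 5.99 CPM in KO. WT 3 stood at more than 2-fold the other WT libraries, and all KO libraries were far below all of WT. The log2 fold change was -3.20 (SE 0.47, adjusted p = 0.0512), and with the block -2.98 (adjusted p = 0.0171).

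The COPI coat, which carries proteins back from the Golgi, was lower in 9 of 17 genes (median -0.25), of which 5 calls held. Cope, a coat subunit, had 153, 145 and 169.7 CPM in WT against 104, 103 and 101 CPM in KO (-0.60), and Arfgap3, which releases the coat, changed by -0.69. The coat subunits Copa and Arcn1 (-0.39 and -0.40) and the GTPase Arf4 (-0.44) were lower too. The KDEL receptors, which return ER chaperones, were not called: Kdelr1 at -0.06 (SE 0.06) and Kdelr2 at -0.15 (SE 0.07). Of 24 genes listed for the Golgi 6 were lower (25.0%, median -0.08). Among them were the tether Uso1 (-0.61), the glycan enzyme Mgat2 (-0.59) and the giant golgin Golgb1 (-0.46). The largest fall of the list, Slc35b1 (-0.70), was of a carrier of the ER membrane.

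Of 11 tested genes for the sensors of the unfolded protein response and related factors, 4 were lower (36.4%, against 2.52% of all genes). These were Creb3l2, Eif2ak3 (PERK), Atf6 and Atf6b. Creb3l2, an ER-anchored factor of the same family as ATF6, had 11.4, 12.3 and 22.8 CPM in WT against 2.65, 1.86 and 1.08 CPM in KO (-2.94, SE 0.38, adjusted p = 0.0101), but lost its call without KO 1 or KO 2 (adjusted p up to 0.0972). Atf6b had 121, 135 and 138 CPM in WT against 96.3, 96.8 and 95.7 CPM in KO (-0.45), and its call held. Those of Eif2ak3 (-0.46; lost without WT 1, WT 3, KO 1 or KO 2) and Atf6 (-0.42; lost without WT 2, WT 3 or KO 3) reached 0.129 and 0.0877. Ern1, which encodes IRE1, had 263, 258 and 248 CPM in WT against 316, 258 and 268 CPM in KO and was not called (0.13, SE 0.07).

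Transcripts known as substrates of decay by IRE1 were lower in 6 of 7 tested genes, against 2.52% of all genes. The median was -0.90, and all 6 calls held. Bloc1s1, a subunit of a lysosome-related organelle complex and the best known of these substrates, was read at 10.4, 13.3 and 15.1 CPM in WT and 3.699, 4.904 and 4.196 CPM in KO (-1.58, SE 0.17, adjusted p = 0.000151). The 6 also include Erp44 and Ergic3, counted above among folding and COPII genes, Tapbp, the tapasin of class I peptide loading (-0.97), Hgsnat, a lysosomal acetyltransferase (-0.81), and Itgb2, a leukocyte integrin chain (-0.90). Pdgfrb was the member not called (-0.52), and was lower with the block. A further 4 members lay below the filter on low counts.

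In the PERK-ATF4-CHOP arm 6 of 29 tested genes were higher, against 0.658% of all genes, and 1 was lower; 21 lay above 0 and 8 below, with a median of 0.22. With the block 10 were higher and 1 lower. Of the 6 rises 1 held, that of Atf5. Atf5, a factor translated under ER stress, had 15.9, 16.3 and 15.7 CPM in WT against 29.5, 24.1 and 25.2 CPM in KO (0.72, SE 0.09, adjusted p = 0.000736). No WT library came near the lowest KO library. Trib3, a pseudokinase induced by ATF4 and CHOP, was barely detected in WT at 0.111, 0.259 and 0.264 CPM, and was at 2.24, 0.726 and 1.32 CPM in KO (2.69, SE 0.56, adjusted p = 0.0226).

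The other 4 rises of this arm were small and concern mitochondrial and one-carbon enzymes and an amino acid carrier: Shmt2 (0.26), Mthfd2 (0.33), Pck2 (0.27) and Slc7a1 (0.22). Each of these, and Trib3, lost its call without at least 3 of the 6 libraries. All 5 were lost without WT 2, and without KO 3 as well, with adjusted p values of up to 0.103 for Trib3 and 0.182 for Slc7a1. Asns, asparagine synthetase, had 31.1, 27.5 and 25.9 CPM in WT against 58.7, 37.8 and 38.001 CPM in KO, with no overlap, and was not called without the block (0.68, adjusted p = 0.167), but was with it (0.000127), by DESeq2 (0.000242) and without KO 1 (0.0146). Atf4 (-0.11) and Ddit3, which encodes CHOP (-0.05), were not called in either fit. Ppp1r15b, the constitutive phosphatase subunit that takes the phosphate of PERK off its target eIF2, was lower (-0.38).

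Of 20 aminoacyl-tRNA synthetases, which ATF4 is known to induce, 0 were called by edgeR, 7 were higher at an unadjusted p under 0.05, 5 were higher with the block and 3 by DESeq2 (median 0.04). Of the 3 most abundant, Eprs changed by -0.07, Nars by 0.03 and Vars by 0.23, and Vars was among those that passed with the block. Cytosolic and mitochondrial heat shock genes had 0 calls in 25 (2 lower at an unadjusted p under 0.05, 1 by DESeq2 and 4 with the block), with Hsp90ab1 at 0.10, Cct8 at -0.06 and Cct2 at -0.00, and the proteasome had 0 in 34 (1 higher at an unadjusted p under 0.05, 0 by DESeq2; median -0.04). Genes of cholesterol synthesis had 3 falls in 26 (11.5%, against 2.52% of all genes). The falls were led by Insig1, the sterol-sensing anchor of SREBP, at 25.7, 18.7 and 27.7 CPM in WT and 12.4, 11.6 and 15.2 CPM in KO (-0.91, lost without KO 1, adjusted p = 0.0531). Among them was also the master regulator Srebf2 (-0.38; lost without WT 3 or KO 3, up to 0.0606). Genes of fatty acid and phospholipid synthesis had 0 calls in 27 (2 higher and 3 lower at an unadjusted p under 0.05, 1 lower by DESeq2), with Scd2 at -0.03, Acly at 0.03 and Fasn at -0.03. Of 73 genes of the respiratory chain 1 was lower, Ndufa9 (-0.49), and of 42 genes of DNA replication and mitosis 1 was higher, the mitotic kinase Plk1 (0.37). These shares, 1.37% and 2.38%, lay below the 3.17% called of all genes. At an unadjusted p under 0.05 the respiratory chain had 2 higher and 3 lower, and replication and mitosis 6 higher and 1 lower. Replication and mitosis had 5 higher and 1 lower with the block, and 2 and 1 by DESeq2. Of its 42 genes 28 lay above 0 and 14 below.

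**Figure D3:**
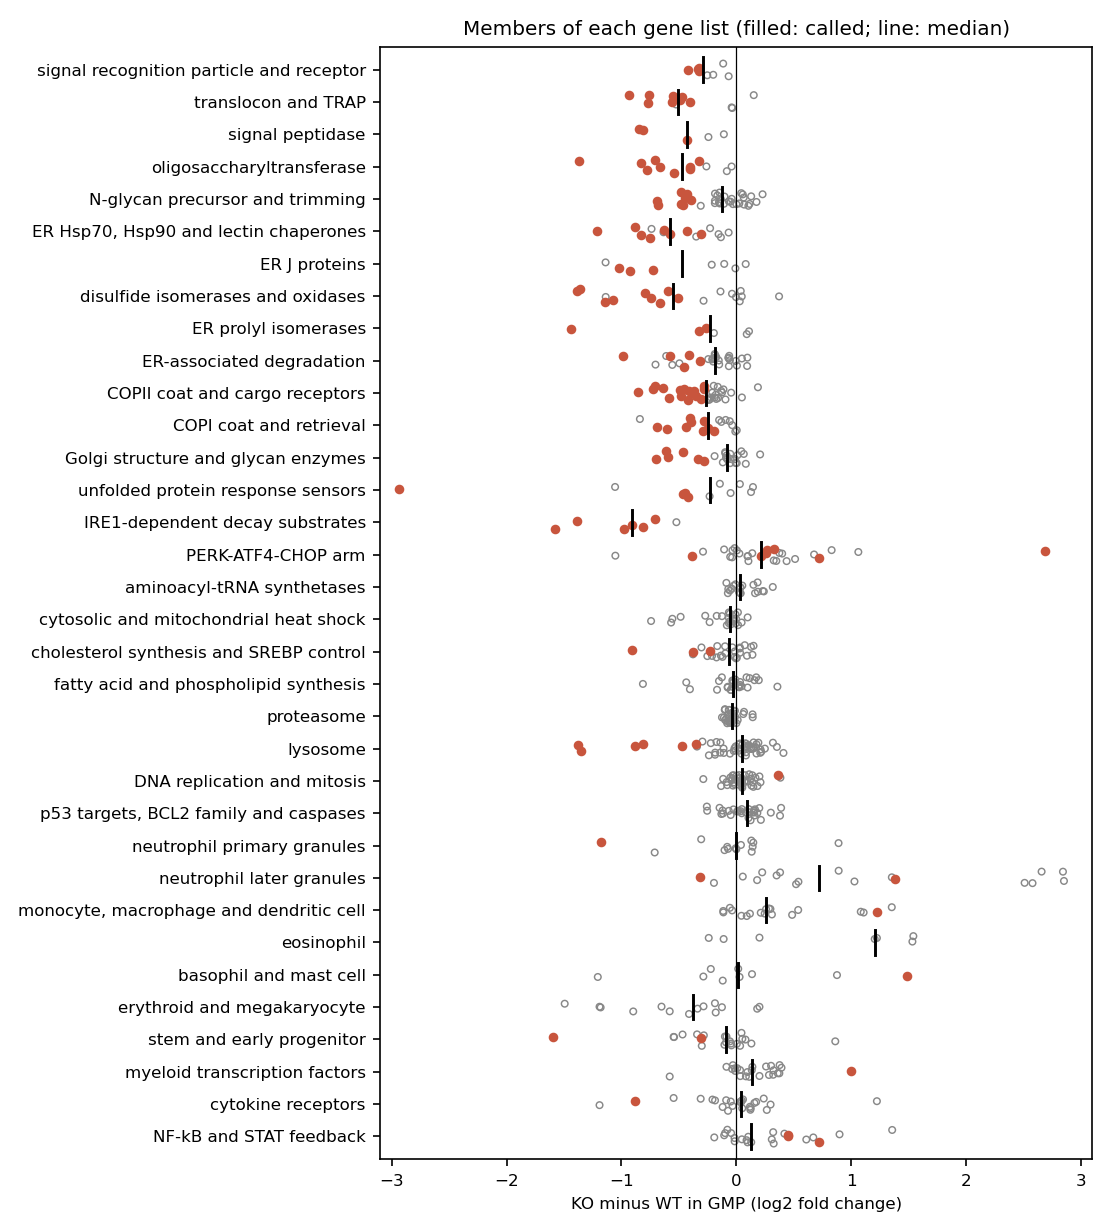
Each circle is a tested member of a gene list, by its KO minus WT log2 fold change in GMP; filled circles were called, and the vertical line of each row is the median. The medians of the secretory lists and of the list of decay by IRE1 lie left of 0, the PERK arm has 6 calls right of 0, and the proteasome has none. Sec24d (COPII, -3.20) lies beyond the axis.

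Outside the secretory lists 210 genes were lower. The lysosome had 6 falls in 53 tested genes (11.3%, against 2.52% of all genes). Its median was 0.05, so that a few members fell while the list as a whole did not lie below 0. Lamp1, the abundant membrane glycoprotein of lysosomes, had 291, 330.03 and 376 CPM in WT against 111, 143 and 137 CPM in KO (-1.35, SE 0.12, adjusted p = 0.000756). Gm2a, the activator protein for ganglioside breakdown, had 176, 190.05 and 240.4 CPM in WT against 72.4, 86.5 and 73.1 CPM in KO (-1.38). Tpp1, a peptidase, changed by -0.88 and the protease Ctsb by -0.47; the call of Manba (-0.35) was lost without WT 1, WT 2 or WT 3 (adjusted p up to 0.0927), and the other 5 held.

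The largest held falls with a mean level of at least 5 CPM were of varied function. Kcnk6, a potassium channel, had 9.96, 11.8 and 16.97 CPM in WT against 3.43, 4.32 and 4.196 CPM in KO (-1.69, adjusted p = 0.000617). Fgl2, a secreted fibrinogen-like protein with prothrombinase activity, had 115, 113 and 156 CPM in WT against 41.7, 38.9 and 37.9 CPM in KO (-1.69, adjusted p = 0.000158). Rnf130, a membrane-bound ubiquitin ligase, had 115, 113 and 159 CPM in WT against 50.8, 49.3 and 47.6 CPM in KO (-1.38, adjusted p = 0.00104). In all 3 genes the lowest WT library exceeded the highest KO library by more than 2-fold. Egfl7, a secreted factor of endothelial and early blood cells (-1.60), and Clec4a2, a lectin receptor with close relatives whose reads may not be fully separated (-1.41), completed the group with Nucb2, Bloc1s1, Fkbp11, Erp44 and Gm2a.

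Nucb2 is a calcium-binding protein of the secretory pathway, with 37.9, 31.9 and 43.4 CPM in WT and 13.02, 11.4 and 11.9 CPM in KO (-1.64, SE 0.11, adjusted p = 1.31e-05). Its relatives were set beside it after their values were seen, so how many of them fell is a description only. Nucb1 (-1.20), Calu (-0.71) and Rcn1 (-0.31) were lower too, and Sdf4 (0.02) and Rcn2 (-0.04) were not called. The call of Nucb1 was lost without KO 1 (adjusted p = 0.0591), and that of Rcn1 without WT 1, WT 3 or KO 3 (up to 0.0895).

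Chosen in the same way, after the values were seen, 8 genes of leukocyte adhesion had 4 falls and 2 rises, a count that depends on that choice. Itgb2 had 27.8, 33.03 and 41.9 CPM in WT against 17.995, 17.8 and 19.3 CPM in KO, while Itgal, which encodes its partner chain in LFA-1, was higher at 264, 276 and 268 CPM in WT and 307, 355 and 355 CPM in KO (0.33; lost without WT 1 or KO 3, up to 0.0727). Spn, the sialomucin CD43 (-0.49), and the membrane linker Msn (-0.51) were lower with held calls, and Cd44 was lower by less (-0.26; lost without WT 1, WT 2 or KO 3, up to 0.0973). Icam1, a ligand of LFA-1, was higher (0.45).

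Of 8 genes of zinc handling, also set together after the fact, 3 were lower, 3 higher and 2 not called, a count that depends on that choice. Those not called were the transporters Slc30a6 (0.01) and Slc30a1 (0.08). The ER and Golgi transporters Slc39a7 (-0.71), Slc30a5 (-0.62) and Slc30a7 (-0.35) were lower. The metallothioneins Mt1, at 97.1, 87.96 and 83.4 CPM in WT and 133, 114 and 129 CPM in KO (0.48), and Mt2 (1.77), and their regulator Mtf1 (0.26), were higher. Mt2 was at very low levels, with 0.387, 0.466 and 0.396 CPM in WT and 1.37, 1.13 and 2.28 CPM in KO. Of these 6 calls, those of Slc39a7, Slc30a5 and Mt1 held; Mtf1 lost its call without any 1 of the 6 libraries (adjusted p up to 0.144), Mt2 without any WT library or KO 3 (up to 0.0865) and Slc30a7 without WT 2, WT 3, KO 1 or KO 3 (up to 0.125).

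The 10 largest held rises with a mean of at least 5 CPM were smaller than the falls, from 1.003 to 0.45. Id1, an inhibitor of helix-loop-helix factors, had 3.82, 3.68 and 3.23 CPM in WT against 7.399, 7.55 and 6.35 CPM in KO (1.003, SE 0.15, adjusted p = 0.00225). Rnf144b, a ubiquitin ligase, had 18.6, 22.002 and 14.9 CPM in WT against 32.3, 31.4 and 28.2 CPM in KO (0.73, adjusted p = 0.00625). Slfn2, a regulator of immune cell quiescence (0.85), Tbkbp1, an adaptor of the kinase TBK1 (0.72), Tgfbi, a secreted matrix protein (0.68), and Commd10, of the COMMD family of trafficking proteins (0.66), were also among the 10, with Atf5, Mt1 and Tnfaip2. Among 23 genes of NF-kB and STAT feedback 3 were higher and 0 lower by edgeR (6 and 0 at an unadjusted p under 0.05, 4 and 0 by DESeq2): Tnfaip2 and Icam1 with held calls, and Bcl3 (0.72), which was lost without WT 1, WT 3 or KO 1 (adjusted p up to 0.11). Interferon response genes had 0 calls in 27 (3 higher at an unadjusted p under 0.05, 0 by DESeq2).

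The gene Sva (chr6:41988393-41992850, mm9), a secreted protein of seminal vesicle, had 0 reads in all 3 WT libraries and 49, 71 and 17 reads in KO 1, KO 2 and KO 3. Against a floor of 3 counts over the WT group it was at least 38.2-fold higher in KO, a bound that covers counting error only. Creb3l2, the gene with the largest called fall, lies on the same chromosome (chr6:37277255-37392146), where 3 genes were higher and 23 lower of 537 tested (4.84%, against 3.17% of all genes; chromosome 9 had 4.97%). The strain in which the KO allele was made is not given in the sources used here, and whether strain background had a part in the values of these 2 genes was not tested.

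Of the 8 markers of GMP 1 was lower (12.5%, against 2.52% of all genes), and 3 were with the block and by DESeq2. Elane (chr10:79349057-79350961, mm9), which encodes neutrophil elastase, had 4179.6, 4125 and 4711 CPM in WT against 2068, 1897 and 1775 CPM in KO (-1.18, SE 0.07, adjusted p = 1.01e-05). The fall exceeded the spread of either group, with a mean of 4339 ± 324 CPM in WT and 1913 ± 147 CPM in KO (SD, n = 3), and the call held. Mpo (-0.10, SE 0.07), Ctsg (0.04, SE 0.07) and Kit (0.03, SE 0.06) were not called. Prtn3, the neighbouring protease of the same granules, was at 3246, 3323 and 2955 CPM in WT and 2877, 2585 and 2246 CPM in KO, and Cd34 at 492, 544 and 562 and 370.3, 498 and 446 CPM; neither was called without the block (-0.31 and -0.28, adjusted p = 0.108 and 0.257). Both were lower with the block (0.0011 and 0.00223) and by DESeq2 (0.00644 and 0.0418), and passed once each among the fits that left out 1 library, Prtn3 without KO 1 and Cd34 without KO 2. Primary granule genes as a list had 1 fall in 14 (7.14%) and a median of 0.00.

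Genes of later granules, which mature neutrophils make, had 1 rise and 1 fall in 18 tested genes (11.1%, against 3.17% of all genes). Their median was 0.72. With the block, which called 8.03% of all genes, they had 12 rises and 2 falls. Cd177, a neutrophil surface protein, had 1.66, 1.35 and 1.19 CPM in WT against 3.65, 3.802 and 3.48 CPM in KO (1.38, adjusted p = 0.00219), a held call. The fall was of Hp, haptoglobin, at 265, 268 and 251 CPM in WT and 225, 217 and 187 CPM in KO (-0.31, adjusted p = 0.0235), and was lost without any WT library or KO 3 (up to 0.11). S100a8, an abundant protein of mature neutrophils, had 24.9, 16.9 and 11.03 CPM in WT against 72.4, 34.5 and 26.4 CPM in KO, highest in replicate 1 of each genotype (1.36, adjusted p = 0.384 without the block and 3.71e-07 with it). Ngp, a granule protein, was at 3.65, 0.155 and 0.264 CPM in WT and 22.4, 3.77 and 2.64 CPM in KO, again highest in replicate 1. These levels were low beside the list's summed 866 to 1038 CPM, in which the groups overlapped. Of 6 genes of the oxidative burst 1 was higher (16.7%, against 0.658% of all genes). It was the oxidase subunit Cyba (0.25), whose call held in 1 of the 6 fits (up to 0.173). Of 25 cytokine receptors 1 was lower (4%, against 2.52% of all genes), the interleukin-1 receptor Il1r1. Its log2 fold change was -0.88, and its call was lost without WT 2, WT 3, KO 1 or KO 3 (adjusted p up to 0.104). At an unadjusted p under 0.05, 5 of the receptors were higher and 4 lower. In bulk RNA more cells of a type and more RNA per cell cannot be told apart.

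The summed level of eosinophil genes was higher in KO, and no member passed the test. The 11 members summed to 354, 221 and 102 CPM in WT and 823, 436 and 426 CPM in KO, and the groups did not overlap. Of the 7 members tested 0 were called by edgeR, 2 were higher at an unadjusted p under 0.05 and 1 by DESeq2, and the median was 1.21, with 5 above 0 and 2 below. Prg2, the major basic protein and the most abundant member, had 239, 132 and 41.5 CPM in WT against 590.3, 312 and 294 CPM in KO (1.54, SE 0.75, adjusted p = 0.461). Epx, eosinophil peroxidase, had 54.3, 35.3 and 17.2 CPM in WT against 155, 73.6 and 83.8 CPM in KO (1.54, SE 0.56, adjusted p = 0.337). Prg3, a major basic protein homolog, had 14.3, 7.71 and 3.04 CPM in WT against 27.04, 17.1 and 13.2 CPM in KO (1.21), and Il5ra, the receptor chain for IL-5, 2.05, 0.984 and 0.924 and 4.29, 2.15 and 2.997 CPM (1.23). Siglec5, a sialic acid receptor, lay on the other side at 38.7, 40.9 and 38.03 CPM in WT and 41.2, 29.02 and 28.7 CPM in KO, with overlapping groups (-0.24). With the block Prg3 and Il5ra were called (adjusted p = 0.00379 and 0.00225). Whether these transcripts had a part in the other differences was not tested.

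Lymphoid genes came to 43.9 to 46.8 CPM in WT and 45.1 to 47.7 CPM in KO, with 15 of the 20 members below the filter, among them Cd3e and Il7r. Erythroid and megakaryocyte genes summed to 583 to 593 CPM in WT and 533 to 552 CPM in KO without overlap, and 0 of 14 were called by edgeR or DESeq2 (1 higher and 4 lower at an unadjusted p under 0.05). Basophil and mast cell genes overlapped in their sums, at 445 to 485 CPM and 407 to 456 CPM. Of 9 tested 1 was higher (11.1%, against 0.658% of all genes), the IgE receptor chain Fcer1a (1.49). Its call was lost without WT 1, WT 2 or KO 1 (adjusted p up to 0.106). Monocyte, macrophage and dendritic cell genes also overlapped in their sums, and 1 of 19 was higher (5.26%, against 0.658% of all genes). It was the lipid receptor Trem2, at 2.54, 2.69 and 1.91 CPM in WT and 4.38, 6.09 and 6.71 CPM in KO (1.23, adjusted p = 0.00581). The median of that list was 0.26, 8 members were higher and 0 lower at an unadjusted p under 0.05, 5 and 0 with the block, 2 and 0 by DESeq2, and 4 were called without KO 1. Stem and early progenitor genes summed to 1803 to 2001 CPM in WT and 1710.2 to 1764 CPM in KO without overlap. Of 22 tested 2 were lower (9.09%, against 2.52% of all genes), Egfl7 and Sox4, a factor of early progenitors. Sox4 changed by -0.31, and its call was lost without WT 2, KO 2 or KO 3 (up to 0.0768).

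**Figure D4:**
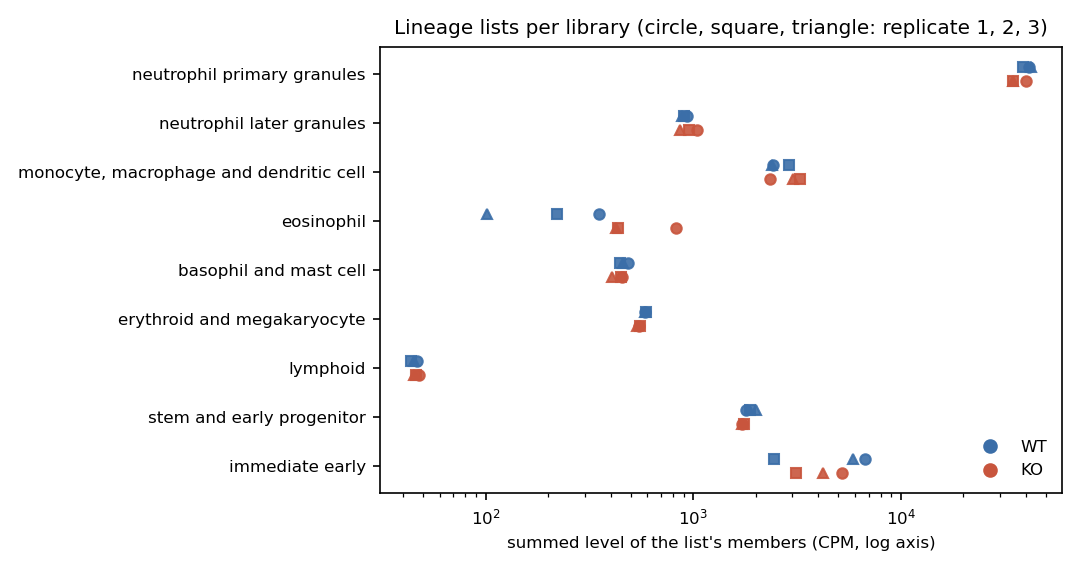
Summed level (CPM, log axis) of the members of each lineage list in the 3 WT and 3 KO libraries. The eosinophil sums lie between 102 and 354 CPM in WT and between 426 and 823 CPM in KO, while the sums of the later granules, the monocyte list and the basophil list overlap; the immediate early sums are lowest in replicate 2 of both genotypes.

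The effect in GMP was set against that in the GATA2-transduced, cultured GMP by an interaction term over all 12 libraries, where stage, culture and library kit change together. Of 12803 genes 11 were called (0.0859%), and only 1 of them, Rnf144b, was also called in GMP alone. Rnf144b was higher in KO in GMP (0.74 in the 12-library fit) and lower in KO in the transduced cells (-1.50), a difference of -2.24 (SE 0.32, adjusted p = 0.0311). Without any 1 of the 6 GMP libraries the difference kept its sign but its adjusted p was 0.0614 to 0.127. For some genes of the GMP response the difference between the stages was not called. It was -0.24 for Xbp1 (SE 0.34), -0.65 for Rpn1 (SE 0.23), -0.12 for Hyou1 (SE 0.53), -0.41 for Elane (SE 0.49) and 0.39 for Atf5 (SE 0.49). Larger differences that also missed the threshold were those of Lamp1 (-1.24, SE 0.27, adjusted p = 0.077) and Dnajb11 (-1.11, SE 0.22, adjusted p = 0.0622). By DESeq2 738 differences between the stages were called. For KO against WT in GMP the 12-library fit called 17 genes, against 381 in GMP alone. A missing call in that fit therefore does not show the same response at both stages. For Fgl2 the log2 fold change was -1.68 in GMP and -0.06 in the transduced cells in that fit, and the difference of 1.62 (SE 0.34, adjusted p = 0.0747) missed the threshold.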

How the data were processed

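Per the labels, polyadenylated RNA of freshly sorted GMP was made into libraries with a TruSeq kit, 3 WT and 3 KO. The authors deposited a table of raw read counts for each library, by gene symbol and not normalized. Per the submitters' processing notes the build was mm9 and the tools STAR 2.3.0, SAMtools 0.1.14, HTSeq and DESeq, with no role given; how strand was treated, which annotation was used and how reads were filtered is not given in the sources used here, so reads of overlapping or antisense genes cannot be told apart. The 5 counter rows, 59.1 to 61.9% of records in GMP, were set aside. Of 27 gene names that had become dates, 23 were restored and 4 left out.

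The test was that of edgeR 4.0.16 (R 4.3.3; filterByExpr, TMM scaling, glmQLFit with robust=TRUE and glmQLFTest), with genotype as the only term and Benjamini-Hochberg adjustment over the genes tested; each adjusted p is edgeR's unless DESeq2 1.42.0 is named. CPM use TMM-scaled library sizes, and the standard error (SE) is the log2 fold change over the square root of F. The replicate numbers pair the libraries: deviations from the group mean correlated at 0.318, 0.249 and 0.192 across genes for equal numbers, the highest for each library, so a fit with that block was also run. The labels do not say what the numbers stand for. Alternatives were other scaling, filters and tools, each library left out, and a fit over all 12 libraries. On simulated data with 200 changed genes the test recovered 99.0% of those changed by 1 and 87.0% of those changed by 0.5 on the log2 scale, with 8 false calls. The changed genes had a mean of at least 5 CPM, and the simulated libraries were independent of each other. These shares therefore do not cover genes at lower levels or libraries paired by replicate number.

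Genes to name were drawn from the 10 largest changes per direction that had a mean of at least 5 CPM and passed in every fit without 1 library, up to 4 called members per list (or the 3 highest where none was called), the GMP markers and Xbp1, and other members of the 42 lists; lists without a call are given in part, and some genes are not reported here. Genes and lists were chosen with earlier results of these data known. Of 926 names 3 were not found. Promoter windows are RefSeq's; coordinates are mm9, with gene bounds from GENCODE vM1. Protein sequences were not analysed here.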

Additional observations from a re-analysis of the deposited data

Results flagged for a closer look

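Rnf144b, which encodes a ubiquitin ligase, differed between the stages: the KO minus WT log2 fold change in GATA2-transduced GMP less that in GMP was -2.24 (SE 0.32, edgeR adjusted p = 0.0311). It was higher in KO in 3 of 3 GMP libraries. The call was lost without any 1 of the GMP libraries (adjusted p 0.0614 to 0.127) and without the transduced KO 1 (0.0904), and DESeq2 made it at 2.29e-08.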

How the results depend on the processing

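Of the 381 genes called in GMP (79 higher, 302 lower), the replicate block gave 964 (396 and 568), and a fit over all 12 libraries, whose spread is shared with the transduced cells, gave 17 (1 and 16). The higher calls were 123 by DESeq2 and 121 with no filter on low counts. Leaving out 1 library gave 209 (without KO 3) to 398 (without KO 1) calls, 25 (without WT 3) to 110 (without KO 2) of them higher and 179 (without KO 3) to 299 (without KO 1) lower. RLE scaling (378), a filter of 1 CPM in 3 libraries (384) and no robust fit (346) stayed within 1.5 times. Xbp1 kept its sign throughout: it passed the threshold by DESeq2 (-1.06, adjusted p = 0.000737), without the robust fit (-1.06, 0.00423) and without KO 1 (-1.32), did not pass with the block (-1.07, 0.199), and ran from -1.32 to -0.91 over the fits without 1 library. The 11 genes with a difference between the stages were 17 with RLE scaling and 738 by DESeq2, and 0 (without the transduced KO 1) to 1179 (without the transduced WT 3) without 1 library; without any 1 GMP library they were 1 or 2. The cause of these shifts was not tested. The 129 named genes include some that were not called and so had no call to lose. Of the 129, 83 lost their call in the fit over all 12 libraries, and 8 to 15 did without a given GMP library. The genes named for the largest changes were chosen to pass in each fit without 1 library, which keeps the latter counts low. None of the 129 changed sign with a call. The shallowest library, KO 3, had 8220484 counts, which limits calls of genes at a few CPM.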
